A study of Mus musculus with 9 samples.

Results

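The genes of the motile cilium were followed in mouse nasal mucosa through an allergic rhinitis model, on 9 Affymetrix Mouse Gene 1.0 ST arrays. The 44 genes were chosen by symbol, and all 44 had at least 1 probe set that the platform annotation assigns to that gene alone, out of 19938 genes measured in this way. They are covered by 136 of the 35556 probe sets of the table, and where a gene has several, the brightest on average over the 9 arrays stands for it. The symbols name 3 transcription factors, 12 axonemal dynein heavy chains, 3 smaller dynein chains, 3 docking and assembly factors, 5 ruler and radial spoke proteins, 6 central pair proteins, 5 tektins and microtubule-associated proteins, 2 adenylate kinases and 5 other genes of ciliated cells.

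All samples were labelled as nasal mucosa of male BALB/c mice, 6 to 8 weeks old, with 3 arrays per group. The 4-week group was sensitised to and challenged with ovalbumin (OVA), the hen egg protein that serves as the allergen, and its mucosa was collected when 4 weeks had passed without further allergen. The OVA group received the same treatment, with mucosa collected 2 hours after the final dose of allergen. The control group received saline for both sensitisation and challenge. The labels give the same age range for every group, and nothing in them ties each array to an animal of its own. The p-values below therefore rest on array-to-array spread that may be technical.

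Motile cilia beat in waves that carry mucus over the airway surface. Their axoneme is a ring of doublet microtubules around a central pair. Rows of outer and inner dynein arms, large motors built on heavy chains, slide the doublets past each other, while radial spokes, nexin links and the central pair set the rhythm. Foxj1 and the RFX factors switch on the genes of this machine in ciliated cells. In the nose the respiratory epithelium carries motile cilia, whereas the cilia of olfactory neurons are sensory.

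The arrays labelled control did not match the sex on their labels. Xist, the RNA of the inactive X chromosome in females, lay between 4.27 and 4.42 on the log2 scale on the 4-week arrays and between 4.22 and 4.36 on the OVA arrays, against 10.62 to 11.11 on the arrays labelled control. Treatment and this female pattern cannot be told apart in any comparison with the arrays labelled control, whereas the 4-week and OVA groups both carry the male pattern. Of the 44 genes, only Efhc2 is X-linked. Array medians lay between 6.38 and 6.45, and arrays of one group correlated at r = 0.986 to 0.992 across probe sets. The 12 markers of mature olfactory neurons averaged 10.18 at 4 weeks, 10.28 in the OVA group and 10.46 in the arrays labelled control, and the 13 markers of nasal glands averaged 9.28 at 4 weeks, 8.85 in the OVA group and 9.75 in the arrays labelled control, so markers of the labelled tissue were present. Since the arrays measure whole mucosa, fewer ciliated cells and less RNA per ciliated cell cannot be told apart.

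The cilia genes stood higher at 4 weeks than in the OVA group. On 27 of the 44 genes (61.4%) every 4-week array lay above every OVA array, and on 0 genes every 4-week array lay below, while 14.5% of all 23410 probe sets tested had their 4-week arrays entirely above and 13.7% entirely below. The median log2 change of the genes was 0.34, against −0.02 for all probe sets tested. Few single genes passed the test across all probe sets, which was limma with Benjamini-Hochberg adjustment at 0.05. Ccdc180, Rgs22, Dnah9 and Dnah7a rose, 4 of 44, where 3.81% of all probe sets rose, and none of the 44 fell, where 2.51% of all probe sets fell. With 1 probe set per gene, 523 of 19938 genes rose and 514 fell. Of these 19938 genes, 12.5% had their 4-week arrays entirely above the OVA arrays and 14.4% entirely below. The 3 comparisons of this report share arrays and are given side by side.

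**Figure D1:**
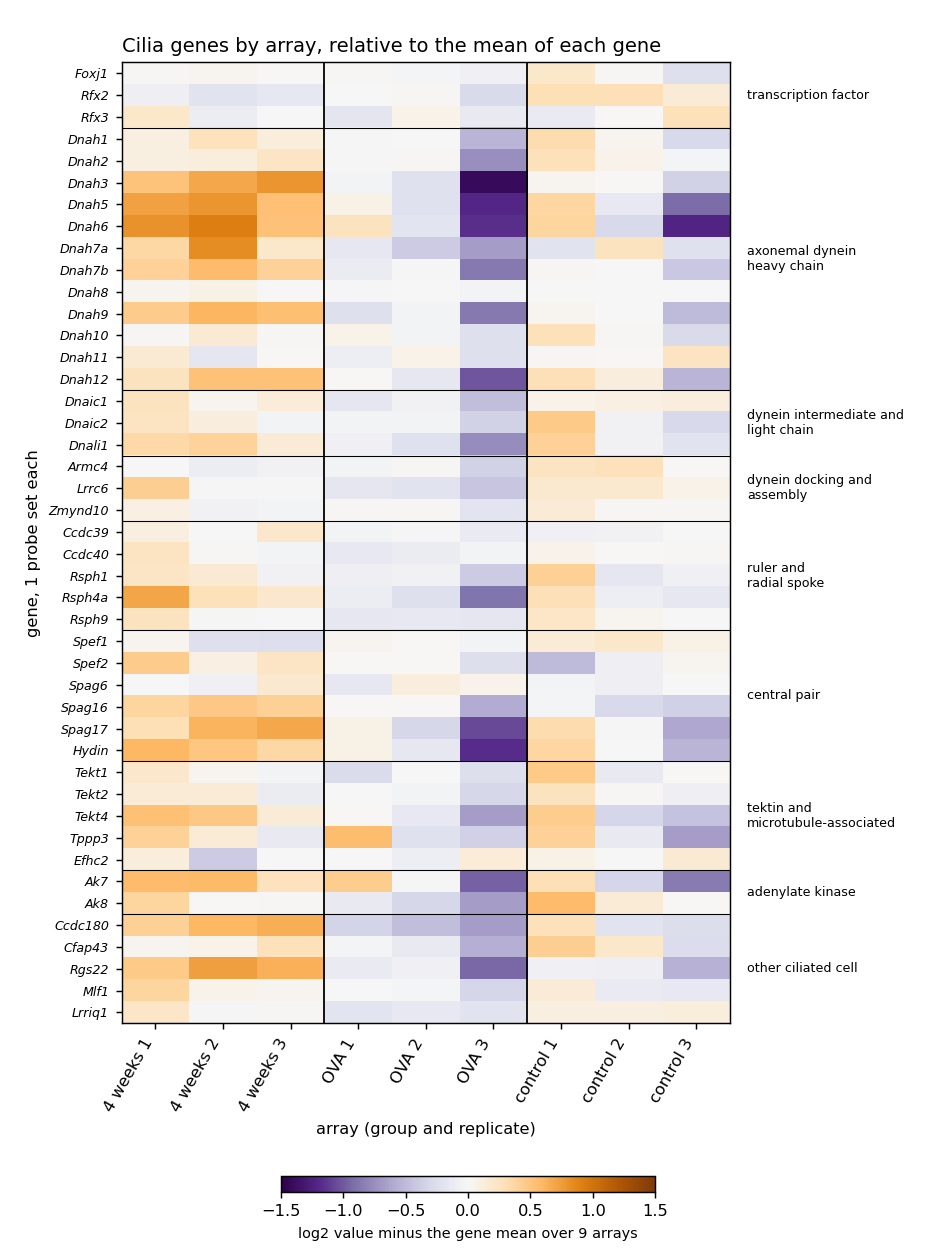
Each row is a gene and each column an array, and the colour gives the log2 value minus the gene's mean over the 9 arrays, with genes ordered by role and groups in the order 4 weeks, OVA and control. OVA replicate 3 held the lowest of the 9 values for 33 of the 44 genes, and the dynein heavy chains show the widest contrast between the 4-week and OVA arrays.

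One OVA array weighed on this difference. OVA replicate 3 held the lowest value of all 9 arrays for 33 of the 44 genes and the lowest of its group for 39. Relative to each gene's own mean, the median gene stood at 0.25, 0.11 and 0.13 on 4-week replicates 1, 2 and 3, at −0.03, −0.05 and −0.41 on the OVA replicates, and at 0.23, −0.00 and −0.16 on the control replicates. Control replicate 3 was likewise the lowest of its group for 32 genes. Without OVA replicate 3 the median log2 change at 4 weeks against the OVA group was 0.22, and 27 genes again had no overlap, where 16.6% of all probe sets did with the same 5 arrays. Leaving out an array cannot lower a count without overlap, so this count does not show how much rested on OVA replicate 3. The genes varied more than others between arrays of a group. Their median SD was 0.14 at 4 weeks, 0.19 in the OVA group and 0.24 in the control group, against 0.11 at 4 weeks, 0.10 in the OVA group and 0.11 in the control group for all probe sets.

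Ccdc180, a coiled-coil gene of ciliated cells, had the smallest p of the 44 genes at 4 weeks against the OVA group. It read 7.97, 8.16 and 8.21 on the 4-week arrays, against 7.22, 7.08 and 6.89 on the OVA arrays. On this probe set, which represents the gene, all 4-week values stood above all OVA values, and OVA replicate 3 did not stand apart. The change was 2.07-fold (log2 change 1.05 with SE 0.15 on 3 arrays per group, adjusted p = 0.00735 in limma). It passed in all 9 fits without an array, with adjusted p up to 0.0346. The next brightest probe set read 7.55, 7.47 and 6.98 on the OVA arrays, so OVA replicate 3 stood apart there. Its log2 change was 0.38 (adjusted p = 0.151 in limma). Over all 27 probe sets of Ccdc180 the median log2 change was 0.56. Ccdc180 was also the single gene of the 44 in which the OVA group passed against the mean of both other groups (log2 change −0.74, adjusted p = 0.0315), where 1.49% of all probe sets passed, a call that held in 2 of the 9 fits without an array.

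Rgs22, a regulator of G protein signalling, read 8.55, 8.83 and 8.73 on the 4-week arrays, against 7.97, 8.03 and 7.15 on the OVA arrays. The groups did not overlap, and most of the OVA spread came from replicate 3. Rgs22 was 1.98-fold higher at 4 weeks (log2 change 0.99, SE 0.23, adjusted p = 0.0391 in limma), but this call held in only 1 of the 9 fits without an array (adjusted p up to 0.121).

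The heavy chains of the dynein arms had the largest median difference of the 9 roles. On 9 of the 12 every 4-week array lay above every OVA array, where 14.5% of all probe sets tested did. The median log2 change of the 12 at 4 weeks against the OVA group was 0.80. Without OVA replicate 3 this median log2 change was smaller, at 0.51. Dnah9, an outer arm heavy chain, read 9.01, 9.17 and 9.11 on the 4-week arrays, against 8.33, 8.52 and 7.70 on the OVA arrays. It rose 1.88-fold (log2 change 0.91, SE 0.21, adjusted p = 0.0391 in limma), a call that held in 2 of the 9 fits without an array. Dnah7a, an inner arm heavy chain, read 6.63, 7.11 and 6.48 on the 4-week arrays, against 6.12, 5.89 and 5.60 on the OVA arrays. It rose 1.83-fold (log2 change 0.87, SE 0.20, adjusted p = 0.0374), a call that held in 4 of those 9 fits. Dnah7b, a close paralogue of Dnah7a, had a log2 change of 0.79 (adjusted p = 0.0602), and the probes of such similar genes may share transcripts.

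Dnah3, an inner arm heavy chain, had the largest change of the 44 genes without passing the test. It read 9.84, 10.02 and 10.12 on the 4-week arrays, against 9.29, 9.11 and 7.93 on the OVA arrays (log2 change 1.22, SE 0.31, adjusted p = 0.0512 in limma). OVA replicate 3 stood 1 log2 unit or more below the other OVA arrays. Without it the change was 0.79 and passed (adjusted p = 0.037). Dnah5, the outer arm heavy chain most often affected in human primary ciliary dyskinesia, stood 1.13 higher at 4 weeks on the log2 scale (SE 0.37, adjusted p = 0.104), Dnah6 had 1.12 (SE 0.43, adjusted p = 0.153) and Dnah12 had 0.81 (SE 0.28, adjusted p = 0.122). None of these passed, although the arrays of the 4-week and OVA groups did not overlap for any of them. At the other end of the family, Dnah8, an outer arm heavy chain best known from sperm, read 6.08, 6.11 and 6.03 on the 4-week arrays, against 6.02, 6.03 and 6.00 on the OVA arrays and 6.03 on all control arrays. Dnah11, which pairs with the outer arm in the lower part of the cilium, had 8.14, 7.82 and 7.99 at 4 weeks against 7.90, 8.05 and 7.75 in the OVA group (log2 change 0.08, adjusted p = 0.693). Dnah10 had 0.13 (adjusted p = 0.599), Dnah1 0.35 (adjusted p = 0.279) and Dnah2 0.40 (adjusted p = 0.231). The value of Dnah10 is the smallest of its 5 probe sets, which ran up to 0.82 with a median of 0.28, and none of them passed. By the probe sets that represent the genes, the heavy chains therefore spanned 0.06 to 1.22 in log2 change.

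**Figure D2:**
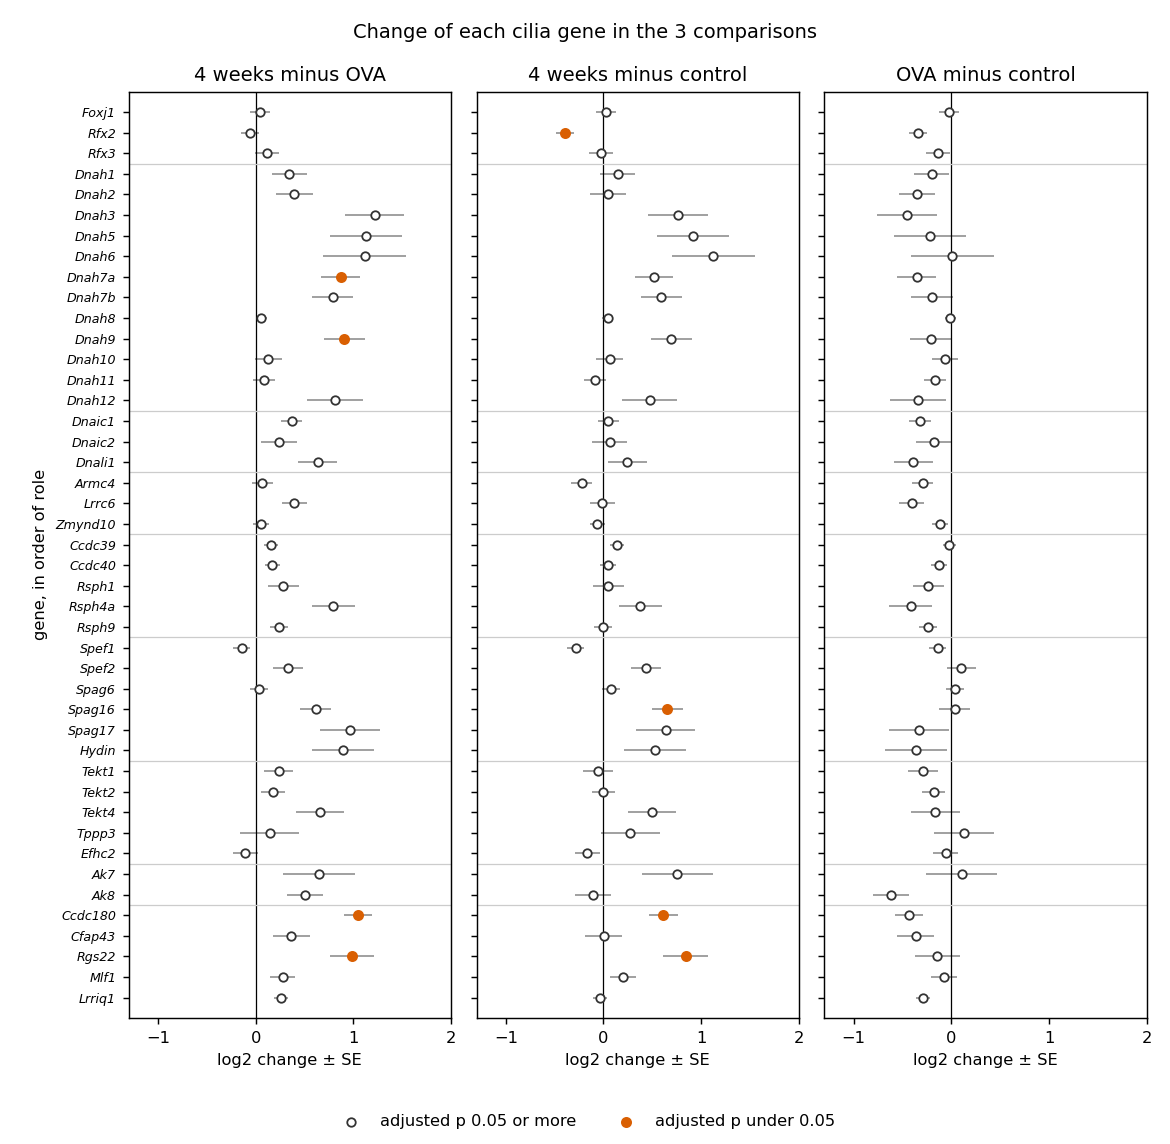
Points give the log2 change of each gene with its SE in 3 comparisons, 4 weeks minus OVA, 4 weeks minus control and OVA minus control, and filled points passed limma at an adjusted p under 0.05. In the first panel 41 of 44 points lie right of 0, in the last 38 of 44 lie left of it.

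Of the other dynein subunits and their assembly factors, none passed at 4 weeks against the OVA group. Dnali1, an inner arm light chain, read 7.95, 8.00 and 7.75 on the 4-week arrays, against 7.54, 7.39 and 6.85 on the OVA arrays (log2 change 0.64, adjusted p = 0.0949). Dnaic2, an outer arm intermediate chain, read 6.76, 6.63 and 6.48 at 4 weeks, against 6.49, 6.49 and 6.18 in the OVA group (0.24, adjusted p = 0.455). The groups of Dnali1 did not overlap, those of Dnaic2 did. The other intermediate chain, Dnaic1, had 0.37 (adjusted p = 0.0777). Of the factors that assemble or dock the arms, Lrrc6 read 8.22, 7.77 and 7.77 at 4 weeks, against 7.62, 7.58 and 7.37 in the OVA group (0.40, adjusted p = 0.1). Zmynd10, which works with Lrrc6 in the cytoplasm, read 7.07, 6.93 and 6.93 at 4 weeks, against 6.99, 6.99 and 6.78 in the OVA group (0.05, adjusted p = 0.727). Armc4, a docking protein of the outer arm, had 0.07 (adjusted p = 0.747).

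None of the 5 genes for proteins that space and regulate the arms passed in this comparison. Rsph4a, a radial spoke head protein, read 9.20, 8.78 and 8.70 on the 4-week arrays, against 8.40, 8.27 and 7.61 on the OVA arrays (log2 change 0.80, SE 0.22, adjusted p = 0.0675). Ccdc39, a part of the molecular ruler on the doublets, read 8.60, 8.49 and 8.69 at 4 weeks, against 8.46, 8.48 and 8.38 in the OVA group (0.16, adjusted p = 0.212). Neither pair of groups overlapped. The other ruler and spoke genes, Ccdc40, Rsph1 and Rsph9, had 0.17, 0.28 and 0.24, with adjusted p from 0.154 to 0.315.

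Central pair genes had a median log2 change of 0.47 over 6 genes, and none passed here. Spag17, a central pair protein, read 6.13, 6.44 and 6.52 at 4 weeks, against 5.91, 5.51 and 4.76 in the OVA group (0.97, adjusted p = 0.0967). Hydin, another central pair protein, had 0.90 (adjusted p = 0.13), and Spef2 had 0.33 (adjusted p = 0.218). Spef1, which bundles the microtubules of the central apparatus, read 7.85, 7.60 and 7.58 at 4 weeks, against 7.85, 7.83 and 7.78 in the OVA group (−0.14, adjusted p = 0.336). Its groups overlapped. The probe set of Spag6 was flat at 0.04 (adjusted p = 0.839), whereas its paralogue Spag6l, which is not among the 44 genes, read 8.71, 8.70 and 8.40 at 4 weeks against 8.05, 7.61 and 6.83 in the OVA group (adjusted p = 0.0729).

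Tekt4, a tektin of the doublet microtubules, read 7.57, 7.50 and 7.18 at 4 weeks, against 7.03, 6.88 and 6.36 in the OVA group (0.66, adjusted p = 0.152). Efhc2 read 6.69, 6.18 and 6.56 at 4 weeks, against 6.56, 6.48 and 6.71 in the OVA group (−0.11, adjusted p = 0.652). Tekt1, Tekt2 and the tubulin-binding Tppp3 had 0.24, 0.18 and 0.15, and none of these 5 genes passed. The adenylate kinase Ak7 read 7.91, 7.91 and 7.61 at 4 weeks, against 7.78, 7.33 and 6.37 in the OVA group (0.65, adjusted p = 0.316). Ak8, of the same enzyme family, read 8.64, 8.27 and 8.28 at 4 weeks, against 8.13, 7.96 and 7.59 in the OVA group (0.51, adjusted p = 0.136). The groups of Tekt4 and Ak8 did not overlap, those of Efhc2 and Ak7 did.

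Lrriq1 read 8.89, 8.66 and 8.69 at 4 weeks, against 8.48, 8.52 and 8.47 in the OVA group and 8.77, 8.77 and 8.79 in the control group. The OVA arrays lay below all others. No pairwise comparison of Lrriq1 passed (4 weeks minus OVA 0.26, adjusted p = 0.0737, and OVA minus control −0.29, adjusted p = 0.1), but it passed the moderated F test for any difference among the groups (adjusted p = 0.0492). Of the 44 genes, 7 passed that test, the others being Ccdc180, Rgs22, Dnah9, Dnah7a, Spag16 and Rfx2, where 12.4% of all probe sets passed. Cfap43, an axonemal protein, and Mlf1 had 0.37 and 0.28 at 4 weeks against the OVA group, with adjusted p of 0.277 and 0.238. The value of Cfap43 is the smallest of its 5 probe sets, which ran up to 0.69 with a median of 0.54, and none of them passed.

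None of the 3 transcription factors passed at 4 weeks against the OVA group. Foxj1 read 7.58, 7.60 and 7.56 at 4 weeks, 7.58, 7.53 and 7.49 in the OVA group and 7.76, 7.58 and 7.33 in the control group (4 weeks minus OVA 0.05, SE 0.10, adjusted p = 0.82). Rfx3 read 8.83, 8.52 and 8.63 at 4 weeks, 8.45, 8.69 and 8.50 in the OVA group and 8.51, 8.64 and 8.90 in the control group (0.12, SE 0.12, adjusted p = 0.603). The groups of both genes overlapped. Rfx2 read 7.15, 7.03 and 7.08 at 4 weeks and 7.22, 7.25 and 6.95 in the OVA group, against 7.53, 7.52 and 7.38 in the control group. Its 4-week and OVA arrays all lay below the arrays labelled control. Rfx2 fell at 4 weeks against control (log2 change −0.39, SE 0.09, adjusted p = 0.0258 in limma), a call that held in 5 of the 9 fits without an array, and its OVA change of −0.34 did not pass (adjusted p = 0.123).

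**Figure D3:**
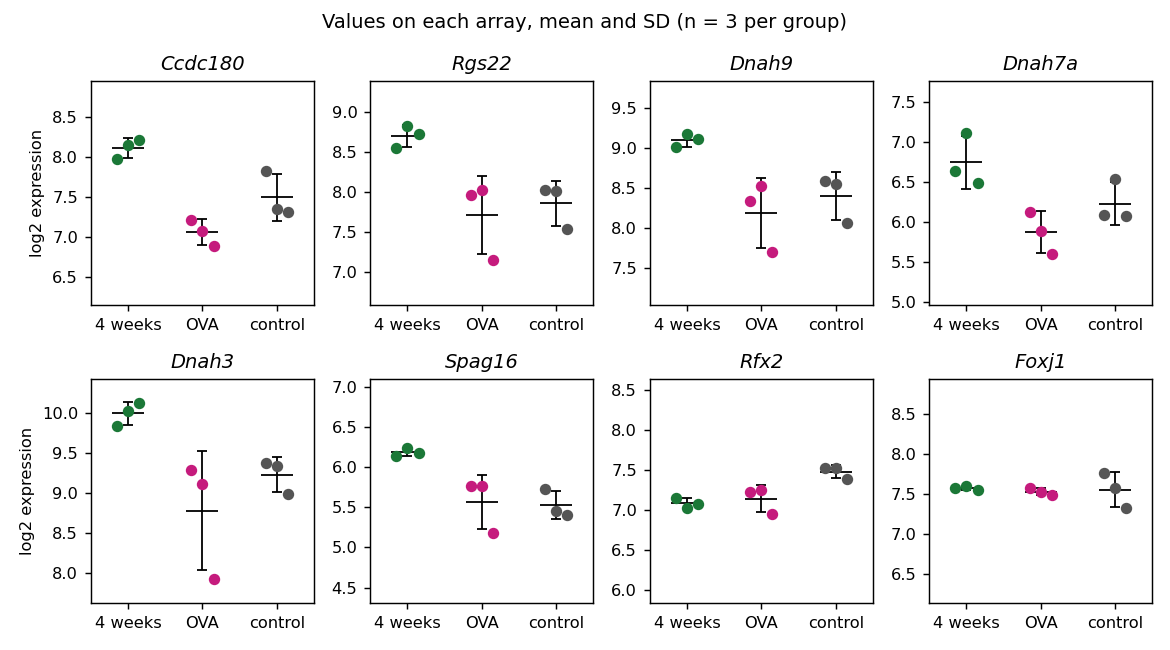
Each dot is 1 array of the group below it, with the group mean as a bar and the SD as whiskers, on the log2 scale and with the same span of values in every panel. Ccdc180, Rgs22, Dnah9, Dnah7a, Dnah3 and Spag16 have 4-week values above all OVA values, Rfx2 has its high values in the control group, and Foxj1 overlaps throughout.

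At 4 weeks against the arrays labelled control, the cilia genes were divided. The median log2 change was 0.07, against −0.04 for all probe sets, with 31 of 44 positive. Ccdc180, Rgs22 and Spag16 rose, 3 of 44, where 7.92% of all probe sets rose, and Rfx2 alone fell, where 6.45% fell. With 1 probe set per gene, 1312 of 19938 genes rose and 1334 fell. On 9 genes all 4-week arrays lay above the control arrays, where 16.6% of all probe sets did. On 3 genes, Rfx2, Armc4 and Spef1, they all lay below, where 18.4% did. As shares of the 44 genes these were 20.5% above and 6.82% below. Without control replicate 1 the median was 0.21.

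Spag16, a central pair protein, read 6.15, 6.24 and 6.17 at 4 weeks and 5.77, 5.77 and 5.18 in the OVA group, against 5.74, 5.46 and 5.41 in the control group. The 4-week arrays lay above all others. The rise over control was 1.57-fold (log2 change 0.65, SE 0.16, adjusted p = 0.0284 in limma) and held in 4 of the 9 fits without an array. Ccdc180 rose 1.53-fold over its control values of 7.83, 7.35 and 7.31 (adjusted p = 0.0273), and Rgs22 rose 1.79-fold over its control values of 8.03, 8.02 and 7.54 (adjusted p = 0.0411). These calls held in 5 and 3 of those 9 fits. The heavy chains had a median of 0.49 over 12 genes. Dnah6 had 1.13, Dnah5 0.91, Dnah3 0.77 and Dnah9 0.70, and none passed by the probe set that represents it, with adjusted p from 0.058 to 0.122. Further probe sets of Dnah3, Dnah6 and Dnah12 did pass against control. Without OVA replicate 3, which enters this comparison only through the shared estimate of the spread, 6 genes rose, Dnah3, Dnah7b and Dnah9 joining the other 3. Without control replicate 2, or without control replicate 3, or without 4-week replicate 2 or 3, 0 genes rose.

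Shortly after the challenge, in the OVA group against the arrays labelled control, 0 of the 44 genes passed limma's adjusted threshold, where 1.30% of all probe sets did. In the same test 8 had an unadjusted p under 0.05, where 16.4% of all probe sets did. In either direction this is close to the share among the 44. By direction it is not alike, since 0 of the 8 were higher, against 1979 of the 3834 probe sets with such a p. The median log2 change was −0.20, against −0.02 for all probe sets, and 38 of 44 changes were negative. On 9 genes (20.5%) all OVA arrays lay below the control arrays, where 11.1% of all probe sets did. They were Rfx2, Dnaic1, Lrrc6, Ccdc40, Rsph9, Spef1, Ak8, Ccdc180 and Lrriq1, with no heavy chain among them. The largest change was that of Ak8, at 8.13, 7.96 and 7.59 in the OVA group against 8.84, 8.41 and 8.27 in the control group (−0.61, SE 0.18, adjusted p = 0.151). The median was −0.06 without OVA replicate 3, −0.12 without control replicate 1 and −0.32 without control replicate 3.

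Several genes were measured by many probe sets, which allowed a check within the gene. Dnah3 had 33 probe sets. All 33 had 4-week arrays entirely above the OVA arrays and entirely above the control arrays, with log2 changes from 0.40 to 1.90 against the OVA group. Of these, 14 passed against the OVA group and 16 against control, although the one that represents the gene passed neither. Ccdc180 had 27 probe sets, with changes from −0.00 to 2.00 and 13 higher and 0 lower against the OVA group. Spef2 had 22 probe sets, with changes from −0.22 to 1.15, 5 higher and 0 lower. Probe sets of a gene share their samples and are not replicates. Over all 136 probe sets, 35 passed upward and 0 downward at 4 weeks against the OVA group. Of all probe sets tested, 3.81% rose and 2.51% fell. The 35 belonged to 6 genes, the 4 named above and Dnah3 and Spef2, and most were the 14, 13 and 5 of Dnah3, Ccdc180 and Spef2. Against control, 33 passed upward and 1 downward, where 7.92% of all probe sets rose and 6.45% fell. The 33 belonged to Dnah3, Dnah6, Dnah12, Spef2, Spag16, Ccdc180 and Rgs22.

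**Figure D4:**
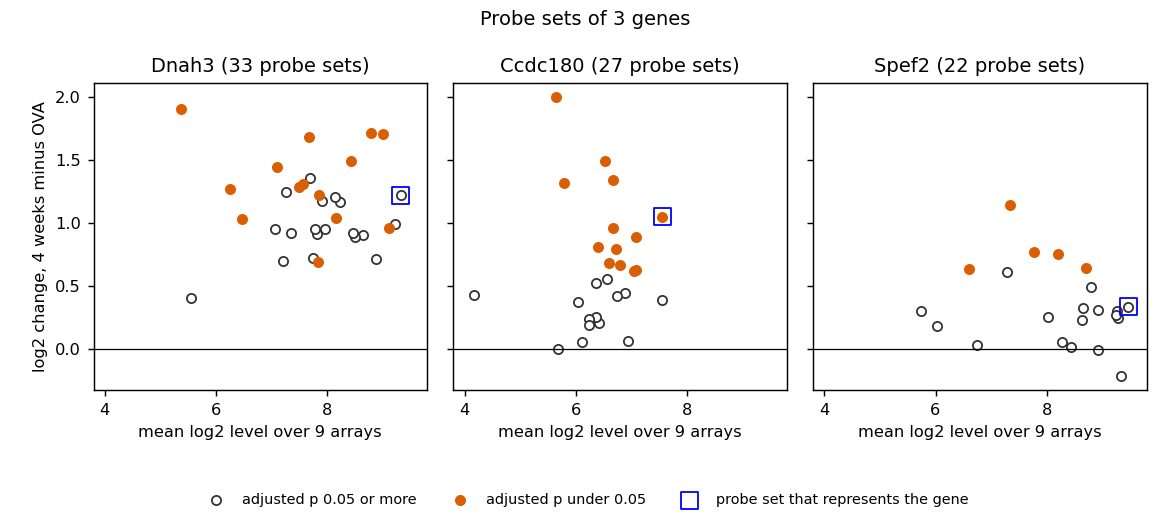
Each point is a probe set of Dnah3, Ccdc180 or Spef2, with its mean log2 level over the 9 arrays on the x axis and its log2 change at 4 weeks against the OVA group on the y axis. Filled points passed at an adjusted p under 0.05 and squares mark the probe sets that represent the genes, and all 33 points of Dnah3 lie above 0.

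The rule that chose the genes did not use gene length, and the genes are long. Their median length in the genome was 104911 bp, against 17737.5 bp for all genes with a length, and the 12 heavy chains had a median of 226726.5 bp. Across the 44 genes, length and the change at 4 weeks against the OVA group had a Spearman rho of 0.40, and across 19856 genes of the table it was 0.14. Within the 12 heavy chains rho was 0.20, and within the other 32 cilia genes it was 0.31. These are descriptions across genes that share the same 6 arrays. The 22 longer cilia genes had a median change of 0.56 and the 22 shorter ones 0.24. Among all genes as long as the longer ones, 2159 in number, the median was 0.00 and 3.84% rose, against −0.03 and 2.48% for the 17697 shorter genes. Exceptions among the cilia genes ran both ways, since Dnah11 is long with a change of 0.08 and Rsph4a is short with 0.80. Dnah8 is long with 0.06, but it read 6.03 on all control arrays, and whether its probe set can show a change is unknown. The part of length in the result was not tested.

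**Figure D5:**
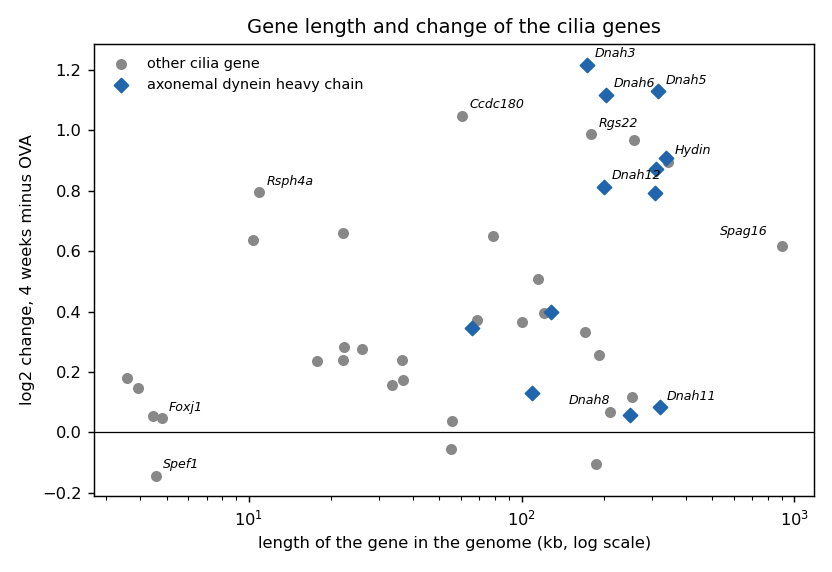
Each point is a cilia gene, with its length in the genome on a log axis in kb and its log2 change at 4 weeks against the OVA group on the y axis, and diamonds are the dynein heavy chains. Of the 12 heavy chains, 7 lie between 0.79 and 1.22, while Dnah8 and Dnah11 lie near 0.

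Promoter sequence was looked at because many of the genes move together across arrays and because the RFX factors bind a known element, the X-box. RefSeq promoter windows of GRCm38.p6, from 250 bases before to 50 after an annotated start, matched 36 of the 44 genes, and the first listed window was used for each. The windows of the 6 genes with the smallest p at 4 weeks against the OVA group that have one are printed, 5′ to 3′ on the strand of the gene. They show the presence, pairing or absence of exact matches to the letters searched. Capitals mark the short RFX motif GTTGCC or its reverse complement GGCAAC, and the full X-box, which was searched as GTTNCC and GGNAAC joined by NN, reads the same on both strands and can overlap a short motif. The windows are chr4:45890053-45890352 (plus strand) for Ccdc180, chr1:53706735-53707034 (minus strand) for Dnah7a, chr11:66168502-66168801 (minus strand) for Dnah9, chr1:69826720-69827019 (plus strand) for Spag16, chr1:46066603-46066902 (plus strand) for Dnah7b and chr10:103236273-103236572 (minus strand) for Lrriq1.
Ccdc180: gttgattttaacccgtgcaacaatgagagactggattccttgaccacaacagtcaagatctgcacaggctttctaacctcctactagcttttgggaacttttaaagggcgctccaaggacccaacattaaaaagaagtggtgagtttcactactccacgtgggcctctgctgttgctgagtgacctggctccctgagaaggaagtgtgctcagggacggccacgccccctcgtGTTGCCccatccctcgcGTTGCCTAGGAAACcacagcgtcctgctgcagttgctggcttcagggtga
Dnah7a: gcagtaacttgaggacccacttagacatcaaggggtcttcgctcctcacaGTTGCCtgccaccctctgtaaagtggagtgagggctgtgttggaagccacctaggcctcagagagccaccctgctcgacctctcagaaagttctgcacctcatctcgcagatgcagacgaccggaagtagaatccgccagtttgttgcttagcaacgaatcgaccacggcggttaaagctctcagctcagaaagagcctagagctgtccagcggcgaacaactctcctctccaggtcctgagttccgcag
Dnah9: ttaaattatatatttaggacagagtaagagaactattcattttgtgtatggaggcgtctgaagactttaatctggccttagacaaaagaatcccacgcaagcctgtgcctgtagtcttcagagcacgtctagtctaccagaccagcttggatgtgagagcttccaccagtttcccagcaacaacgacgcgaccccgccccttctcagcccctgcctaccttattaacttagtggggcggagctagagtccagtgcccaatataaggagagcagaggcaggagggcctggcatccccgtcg
Spag16: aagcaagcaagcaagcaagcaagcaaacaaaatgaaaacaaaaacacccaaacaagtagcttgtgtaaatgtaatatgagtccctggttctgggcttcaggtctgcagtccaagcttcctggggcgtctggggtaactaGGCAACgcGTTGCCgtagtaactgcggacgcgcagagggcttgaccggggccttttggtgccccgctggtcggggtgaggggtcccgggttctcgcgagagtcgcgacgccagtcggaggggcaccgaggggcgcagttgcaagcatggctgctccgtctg
Dnah7b: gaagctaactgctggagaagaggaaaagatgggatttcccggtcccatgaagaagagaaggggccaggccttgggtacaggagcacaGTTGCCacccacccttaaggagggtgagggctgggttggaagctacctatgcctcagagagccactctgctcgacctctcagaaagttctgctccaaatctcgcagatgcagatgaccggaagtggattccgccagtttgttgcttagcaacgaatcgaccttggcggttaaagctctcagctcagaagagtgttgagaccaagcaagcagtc
Lrriq1: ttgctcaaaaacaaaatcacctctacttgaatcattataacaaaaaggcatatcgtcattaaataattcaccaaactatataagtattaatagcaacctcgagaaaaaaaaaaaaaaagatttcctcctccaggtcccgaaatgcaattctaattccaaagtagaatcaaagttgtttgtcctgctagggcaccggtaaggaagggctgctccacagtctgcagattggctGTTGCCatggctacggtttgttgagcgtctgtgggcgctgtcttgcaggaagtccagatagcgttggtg

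The window of Ccdc180 holds a short motif 17 bases before the start and a full X-box that begins at the start base itself, with another short motif inside it. Those of Dnah7a, Dnah7b and Lrriq1 hold 1 short motif each, 200, 163 and 19 bases before the start. That of Spag16 holds a pair of short motifs in opposite orientation, 111 and 103 bases before the start. That of Dnah9 holds none of these exact letters, and looser forms of the X-box were not searched in any window. The short motif was in the windows of 17 of 36 cilia genes (47.2%) and of 12.7% of the 27025 genes with a window. The full X-box was in 1 of 36 (2.78%), that of Ccdc180, and in 0.444% of all genes. A forkhead sequence, GTAAACA on either strand, was in 3 of 36 (8.33%), those of Ak7, Cfap43 and Mlf1, and in 3.55% of all genes. The 17 genes with the short motif had a median log2 change of 0.26 at 4 weeks against the OVA group and the 19 without it 0.37. A match is a description of letters, not a binding site.

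Other genes of the cilium, from lists written alongside the 44, gave few calls. At 4 weeks against the OVA group, 5 of 96 further axonemal and ciliated cell genes rose and 1 fell, with a median log2 change of 0.18. Over all probe sets 3.81% rose and 2.51% fell, so the numbers called in this and the other lists below were near that background. With 1 probe set per gene, 523 of 19938 genes rose and 514 fell. Tsga10 rose by 0.76, Enkur by 0.62, Cfap221, a central pair protein, by 0.53, Vwa3b by 0.41 and Morn2 by 0.40 (adjusted p from 0.0212 to 0.0373). Mapk15, a kinase linked to cilium formation, fell by 0.62 on the log2 scale (adjusted p = 0.00847). Of 29 intraflagellar transport genes, which build the cilium, Ttc30b alone rose (0.45, median of the list 0.10), and of 28 dynein assembly, docking and light chain genes Wdr63 alone rose (0.56, median 0.015). Rfx7 rose among 21 regulators of multiciliogenesis (0.65, median 0.03), and 0 of 11 BBSome genes passed (median 0.03). By groups without overlap, 32.3% of the 96 genes had every 4-week array above every OVA array and 8.33% every array below. These shares were 31% and 0% for intraflagellar transport, 23.8% and 9.52% for multiciliogenesis and 17.9% and 7.14% for dynein assembly. They were 18.2% each for the BBSome genes. Over all probe sets tested they were 14.5% and 13.7%.

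At 4 weeks against the arrays labelled control, 7.92% of all probe sets rose and 6.45% fell. Of the 96 further axonemal genes, 3 rose (Cfap221, Enkur and Tsga10) and 6 fell, led by Ttll6, a tubulin polyglutamylase, which fell by 0.91, and Mapk15, which fell by 0.82. Stk36, Lrrc43, Ribc2 and Kif27 fell by 0.44, 0.43, 0.33 and 0.30. The 6 that fell are near the background share and the 3 that rose are below it. Of the dynein assembly list, Dnal1, an outer arm light chain, rose by 0.44, and Dnal4, Ttc25 and Ccdc114 fell by 0.53, 0.43 and 0.30. Ttc25 and Ccdc114 encode docking proteins of the outer arm. Ccno, a regulator of centriole amplification, fell by 0.46 while Rfx7 rose by 0.60, and Ttc30b rose by 0.40. In the OVA group against control, 0 genes of the 5 lists passed. The medians were −0.17 for the 96 axonemal genes and between −0.09 and −0.06 for the other 4 lists.

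Markers of other cell types were read on the same arrays. The summed level of 10 squamous markers lay between 8.43 and 8.64 at 4 weeks, between 9.55 and 10.25 in the OVA group and between 8.49 and 10.09 in the control group, and Sprr1a fell at 4 weeks against the OVA group. That of 12 secretory, club and goblet markers lay between 14.02 and 14.05 at 4 weeks, 13.95 and 14.35 in the OVA group and 13.39 and 13.97 in the control group, with 0 of 12 called at 4 weeks against the OVA group (10 of 12 changes negative, median −0.28) and 0 of 12 in the OVA group against control (12 of 12 positive, median 0.43). Of 12 immature olfactory neuron markers, 10 were negative at 4 weeks against the OVA group and 10 positive in the OVA group against control. Of 10 squamous markers, 9 were negative in the first comparison and 5 positive in the second. These counts were 6 and 7 for 10 basal markers and 9 and 2 for 12 mature olfactory neuron markers. They were 7 and 6 for 12 leukocyte, 4 and 4 for 13 nasal gland, 2 and 3 for 7 sustentacular and 4 and 2 for 8 tuft cell markers. Of all 23410 probe sets tested, 12955 were negative in the first comparison and 10612 positive in the second. Agr2 rose at 4 weeks against control. The 12 leukocyte markers lay between 11.38 and 11.89 at 4 weeks, 11.20 and 11.68 in the OVA group and 10.76 and 11.87 in the control group, with 0 called in any comparison. Of 12 markers of immature olfactory neurons, 6 rose in the OVA group against control, where 0.782% of all probe sets rose and 0.521% fell. They were Sox11, Stmn1, Nhlh1, Dpysl3, Gng8 and Gap43. At 4 weeks against control 6 rose, where 7.92% of all probe sets did, namely Sox11, Stmn1, Dpysl3, Nhlh1, Neurod1 and Gap43, and Gng8 fell at 4 weeks against the OVA group. Mature olfactory neuron markers had 2 of 12 lower at 4 weeks against control, Gnal and Rtp1, where 6.45% of all probe sets fell. The 10 basal markers lay between 10.93 and 10.99 at 4 weeks, 10.95 and 11.52 in the OVA group and 10.51 and 11.16 in the control group, with Ngfr lower at 4 weeks against control. The nasal gland markers lay between 15.41 and 15.49 at 4 weeks, 15.12 and 15.35 in the OVA group and 15.43 and 15.64 in the control group, with Bpifb9a lower in the OVA group against control, Bpifb6 higher at 4 weeks against control and Dcpp2 lower at 4 weeks against both other groups. Of 8 tuft cell markers Gnat3 rose at 4 weeks against both other groups, and 0 of 7 sustentacular markers passed in any pairwise comparison. The part of these markers in the cilia results was not tested.

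The cilia genes ran together over the 9 arrays. The correlation of each gene with the mean of the 44, each gene centred on its own mean, was over 0.8 for 23 genes, under 0.5 for 9 and negative for 3, with a median of 0.82, where the median of all genes was −0.08. This describes 9 arrays in 3 groups, and each gene is part of the mean. Outside all the lists, the genes with the most similar pattern over the 9 arrays were Ppp1r32 (Pearson r = 0.990), Spag6l (0.985), Ttc12, known as a dynein assembly factor in humans (0.973), the cytochrome P450 gene Cyp2b10 (0.970), Sptlc3 (0.969), Fam214a (0.969), Fads2b (0.968), Lrrc74b (0.962), Cdc37 (0.960) and the retinaldehyde dehydrogenase Aldh1a1 (0.960). Ppp1r32 read 7.84, 7.71 and 7.65 at 4 weeks, 7.33, 7.18 and 6.47 in the OVA group and 7.59, 7.17 and 6.89 in the control group.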

How the data were processed

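Gene expression in nasal mucosa was measured on 9 arrays, 1 per sample. The table holds log2 values that the authors derived with RMA, per the submitters' processing notes, and the values themselves (1.63 to 13.8) gave the scale. The RMA software is not named in what was used here. The table has no detection calls, so signal over background is unknown, and no filter on low values was applied: all 44 genes were tested.

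Gene symbols came from the platform annotation. In R 4.3.3, limma 3.58.1 fitted a mean for each of the 3 groups over the 23410 rows with a symbol, with moderated two-sided tests and Benjamini-Hochberg adjustment over all rows within each comparison. The fit was tested on simulated data. Groups came from the labels.

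The genes, lists and tests were chosen with earlier results of these data known. Values on every array were to be given for genes that passed, for the transcription factors, and for the largest and smallest change of each role. Other genes named, such as paralogues, were chosen after their values were seen. List genes are named where they passed, up to 6 per list and comparison. Alternatives were other scalings, filters, priors and probe sets, a replicate block and leaving out each array.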

Additional observations from a re-analysis of the deposited data

How the results depend on the processing

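Under all alternatives run, the sign of no called gene turned, and 2266 of 2361 single-gene values kept their side of the threshold. Which genes passed depended on the setting. At 4 weeks against the OVA group, the 4 genes that rose became 9 with median centring, 8 among the upper 60% of probe sets by mean, 1 with every row of the table or with the compared groups only, and 1 to 4 without 1 array. Ccdc180 passed in each of these. At 4 weeks against control, 5 genes rose with the compared groups only in place of 3 (Dnah3, Dnah7b and Dnah9 gained a call, Ccdc180 lost its call) and 0 to 6 without 1 array, and the 1 that fell became 2 with quantile scaling, with the upper 60% or with a trended, robust prior, 0 with median centring, and 0 to 2 without 1 array. In the OVA group against control, 1 gene fell with quantile scaling (Lrriq1), and 0 passed without any 1 array. The F test passed 1 gene with every row and 1 to 7 without 1 array. The OVA group against the mean of the others passed 2 genes among the upper 60%, 0 with every row or with the mean over the probe sets of a gene, and 0 to 1 without 1 array.

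With the replicate number as a block, 14 genes rose at 4 weeks against the OVA group, 8 rose against control, 1 fell in the OVA group (Ak8), 14 passed the F test and 3 the OVA group against the others. Deviations of arrays with the same number correlated between −0.04 and 0.33 over all probe sets and between −0.23 and 0.78 over the 44 genes, where OVA and control arrays of the same number gave 0.71, 0.23 and 0.78. Since not every pair was above 0.1 on either measure, and the labels name no shared animal or batch, the numbers were not taken to pair the arrays, and whether they do is unknown.

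Over all probe sets, the compared groups only gave 109 calls in place of 305 for OVA against control, 737 in place of 1481 for 4 weeks against OVA and 2054 in place of 3364 for 4 weeks against control. Every row gave 143 for OVA against control. Leaving out 1 array gave 63 to 305, 446 to 1361 and 1560 to 2966. The cause of these differences was not tested. With 3 arrays per group and no detection calls, small changes and values near background cannot be resolved. Counts without overlap and medians under the alternatives were added after the data were seen.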
